A study of Mus musculus with 50 samples.

Results

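In mouse ESCs carrying the Ezh2 Y726D point mutation, 1681 of 40829 H3K27ac peaks lay on sites bound by SUZ12 in wild-type cells (4.12%, 95% CI 3.93 to 4.31). They were found by position: each overlaps, by 1 bp or more, a SUZ12 peak called in the parental line E14 (WT). They cover 1532 of the 5404 WT SUZ12 peaks. The study derived its lines from E14TG2a ESCs, grown in 2i/LIF with serum, by CRISPR/Cas9, and each line is a clone or comes from one. Ezh2 KO cells lack the whole Ezh2 gene and keep Ezh1. Ezh1/2 dKO cells lack both genes. Ezh2 Y726D and Ezh2 R685C cells lack Ezh1 and carry a point mutation in Ezh2, so Ezh1 is deleted in every mutant line used here except Ezh2 KO. The SUZ12 and H3K27me3 samples labelled with Y726D alone were taken as the same Y726D line. H3K27ac lists were used for these 4 mutant lines, with 1 library each, and H3K27ac in WT cells was not analysed here. RNA-seq, with 2 libraries for each line, covered WT cells and all of these mutants but Ezh2 R685C. HA ChIP-seq lists, with 1 library each, came from Ezh1/2 dKO cells transfected with HA-tagged human EZH1 and from untransfected Ezh1/2 dKO cells.

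PRC2 is the complex that methylates lysine 27 of histone H3. EZH1 and EZH2 are its alternative catalytic subunits, SUZ12 is a core subunit needed for its assembly, and H3K27me3 marks the developmental genes it keeps silent in ESCs. Acetylation of the same lysine, H3K27ac, is laid down by the acetyltransferases p300 and CBP at active promoters and enhancers, and a single lysine cannot carry both marks at once. In mouse ESCs, most PRC2 sites are CpG islands at the promoters of transcription factors and signalling genes, among them the Hox clusters.

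The sequence under the H3K27ac summits is shown first, because most of these summits lay in CpG-rich DNA of the kind PRC2 occupies. The windows below are 300 bases around the summit, read on the plus strand of NCBIM37 (mm9), with each CpG in capitals. The first lies at chr6:52183445-52183744, on an exon of Hoxa10, and holds 15 CpGs.
Hoxa10: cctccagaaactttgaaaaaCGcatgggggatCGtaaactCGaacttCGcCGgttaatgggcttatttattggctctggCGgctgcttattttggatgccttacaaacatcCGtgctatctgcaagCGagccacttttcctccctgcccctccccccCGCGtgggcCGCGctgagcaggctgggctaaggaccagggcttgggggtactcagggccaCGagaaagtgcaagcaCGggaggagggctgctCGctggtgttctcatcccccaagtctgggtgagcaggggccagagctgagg
The next, at chr6:52198709-52199008, lies in an intron of the antisense gene Hoxa11os and holds 11 CpGs.
Hoxa11os: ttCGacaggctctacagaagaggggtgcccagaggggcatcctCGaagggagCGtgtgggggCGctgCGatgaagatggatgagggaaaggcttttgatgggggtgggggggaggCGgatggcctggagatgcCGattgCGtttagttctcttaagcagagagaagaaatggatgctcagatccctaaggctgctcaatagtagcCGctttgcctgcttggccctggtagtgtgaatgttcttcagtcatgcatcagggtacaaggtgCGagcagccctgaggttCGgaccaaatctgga
The window at chr6:52175677-52175976 lies on an exon of Hoxa9 that includes coding sequence, and holds 28 CpGs.
Hoxa9: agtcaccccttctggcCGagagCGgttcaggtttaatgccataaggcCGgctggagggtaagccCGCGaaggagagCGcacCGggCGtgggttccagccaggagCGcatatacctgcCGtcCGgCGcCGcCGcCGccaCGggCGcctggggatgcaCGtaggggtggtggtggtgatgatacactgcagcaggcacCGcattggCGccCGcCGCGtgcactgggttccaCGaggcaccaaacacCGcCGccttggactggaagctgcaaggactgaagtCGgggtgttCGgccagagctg
The window at chr6:52193706-52194005 lies in an intron of Hoxa11 and holds 10 CpGs.
Hoxa11: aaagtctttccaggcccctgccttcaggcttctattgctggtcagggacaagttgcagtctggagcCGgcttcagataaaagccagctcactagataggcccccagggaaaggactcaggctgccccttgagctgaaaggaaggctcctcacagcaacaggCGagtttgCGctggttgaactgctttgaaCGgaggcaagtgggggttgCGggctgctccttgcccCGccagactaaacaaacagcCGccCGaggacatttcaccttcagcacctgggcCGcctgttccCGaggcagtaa
These 4 belong to the genes with the largest rise in RNA described below. The last 3 belong to strong peaks. At chr13:53557976-53558275, outside genes and 10317 bp from the TSS of Msx2, the summit window of the strongest peak holds 19 CpGs.
Msx2: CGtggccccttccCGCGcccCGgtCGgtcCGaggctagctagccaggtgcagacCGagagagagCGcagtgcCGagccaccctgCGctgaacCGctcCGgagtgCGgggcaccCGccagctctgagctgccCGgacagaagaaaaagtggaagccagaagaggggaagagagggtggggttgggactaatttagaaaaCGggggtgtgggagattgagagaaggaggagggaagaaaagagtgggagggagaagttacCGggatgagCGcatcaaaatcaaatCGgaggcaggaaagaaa
The window at chr1:134776153-134776452, outside genes and 547 bp upstream of the TSS of Lrrn2, holds only 3 CpGs.
Lrrn2: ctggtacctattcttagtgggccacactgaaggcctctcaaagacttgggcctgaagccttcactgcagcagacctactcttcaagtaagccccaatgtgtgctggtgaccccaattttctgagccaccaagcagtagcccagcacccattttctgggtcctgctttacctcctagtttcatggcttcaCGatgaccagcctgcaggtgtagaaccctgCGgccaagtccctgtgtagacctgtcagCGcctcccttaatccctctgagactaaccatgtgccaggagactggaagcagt
The window at chr4:125168900-125169199, in an intron of Grik3, holds 21 CpGs.
Grik3: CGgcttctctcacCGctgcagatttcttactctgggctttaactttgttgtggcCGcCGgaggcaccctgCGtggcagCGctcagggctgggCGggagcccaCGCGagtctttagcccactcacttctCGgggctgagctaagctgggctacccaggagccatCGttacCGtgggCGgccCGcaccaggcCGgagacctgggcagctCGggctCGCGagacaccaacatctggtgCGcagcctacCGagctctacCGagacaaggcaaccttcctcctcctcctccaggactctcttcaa

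Over all 1681 peaks, the median window held 22 CpGs and 64.3% G and C. A window was called CpG-rich when G and C exceeded 50% and CpGs exceeded 0.6 of the number its base composition gives. By this measure 72.9% of the peaks on SUZ12 were CpG-rich, against 32.4% of the 18404 other Y726D H3K27ac peaks with a TSS within 5 kb, whose median window held 8 CpGs. The contrast was widest far from genes. Among summits over 5 kb from any protein-coding TSS, 64.9% of the 305 windows on SUZ12 were CpG-rich, against 2.58% of 23096 others. SUZ12 peaks are themselves CpG-rich, and the windows of WT SUZ12 peaks without Y726D H3K27ac were so in 71.3% of cases, those with it in 82.3%. Most of the acetylated SUZ12 sites were promoters. Distances of summits were taken to protein-coding TSSs only. The median summit lay 609 bp away, 61.0% lay within 1 kb, and of those 72.4% were downstream of the TSS. A further 20.3% lay in protein-coding gene bodies and 18.6% outside them. Other peaks with any TSS within 5 kb had 55.6% of summits within 1 kb of a protein-coding one, 66.0% of these downstream.

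The acetylated SUZ12 sites were ordinary in width and strength. Their median width was 612 bp (quartiles 391 and 920) and ranged from 200 to 11260 bp. The median -log10 p of the peak caller was 15.02 (quartiles 12.2 and 20.4), and the median enrichment over background was 6.39-fold. All other Y726D H3K27ac peaks had a median width of 616 bp, a median -log10 p of 15.2 and a median enrichment of 6.28-fold. The strong tail was shorter, as 90% of the peaks on SUZ12 had a -log10 p under 28.7, against 36.6 for other peaks near a TSS. The rule selects on overlap with SUZ12, and all of these values describe the selected peaks. The weakest had a -log10 p of 10.03, at the limit of the list. At the edge of the overlap, 14 peaks shared under 50 bp with SUZ12 (median -log10 p 12.01), and 184 peaks lay within 500 bp of a SUZ12 peak without touching it (median 14.2).

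The H3K27ac peaks mostly sat within the SUZ12 peaks. Of the 1681, 1515 had their summit inside a SUZ12 peak (90.1%) and 921 lay wholly inside (54.8%). The H3K27ac and SUZ12 summits were a median of 184 bp apart, and the SUZ12 peak was a median of 1103 bp wide. A single SUZ12 peak held up to 5 H3K27ac peaks, and 48 H3K27ac peaks touched 2 or more SUZ12 peaks. The share of SUZ12 peaks with H3K27ac differed between chromosomes, from 13.8% on chromosome 12 (95% CI 10.004 to 18.8) to 38.3% on chromosome 15 (32.8 to 44.1). Chromosome 12 also had few H3K27ac peaks of any kind, 977.

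The peaks on SUZ12 were shared with the other mutant lines in a different order from the rest of the list. An H3K27ac peak of Ezh1/2 dKO overlapped 477 of them (28.4%, 95% CI 26.3 to 30.6), one of Ezh2 R685C 341 (20.3%, 18.4 to 22.3) and one of Ezh2 KO 213 (12.7%, 11.2 to 14.3). Of the other peaks near a TSS, 38.8% were overlapped in Ezh1/2 dKO, 78.5% in Ezh2 R685C and 58.1% in Ezh2 KO. On SUZ12 sites Ezh1/2 dKO thus gave the highest share, and elsewhere the lowest. The shares elsewhere rose with the length of the lists, 17618 peaks in Ezh1/2 dKO, 25483 in Ezh2 KO and 41185 in Ezh2 R685C. Off SUZ12, no cut of the lists to equal length was made. The order on SUZ12 turned at a p of at most 1e-20 in all lists, where R685C overlapped 13.1% of 251 sites and Ezh1/2 dKO 12.7%. No list of another line touched 1077 of the peaks on SUZ12 (64.1%, against 24.3% of all other peaks), 232 were shared with Ezh1/2 dKO alone (13.8%, against 1.78%), and 155 with all 3 lines (9.22%, against 28.2%). Intervals cover counting error only. Since each line has a single H3K27ac library, differences between lines carry no test, and the read depth of each list is unknown.

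Strong peaks were shared more often, so peaks were also compared within quintiles of the whole Y726D list by -log10 p. In the weakest quintile, Ezh1/2 dKO overlapped 5.14% of the peaks on SUZ12 and 7.34% of other peaks near a TSS, while Ezh2 KO overlapped 2.74% and 24.8%. In the strongest quintile, Ezh1/2 dKO overlapped 80.5% and 87.1%, Ezh2 KO 45.8% and 95.1%, and Ezh2 R685C 58.6% and 97.8%. At matched strength, then, the share was lower on SUZ12 than off it in every quintile of each line. The gap was small in Ezh1/2 dKO and large in Ezh2 KO and Ezh2 R685C. Shared peaks were stronger in Y726D than in the other line. Where Ezh1/2 dKO shared a peak on SUZ12, the median -log10 p was 22.6 in Y726D and 13.1 in Ezh1/2 dKO. Where Ezh2 R685C did, the values were 23.1 and 16.96, whereas off SUZ12 the R685C peak was the stronger, at 27.8 against 16.96.

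**Figure D1:**
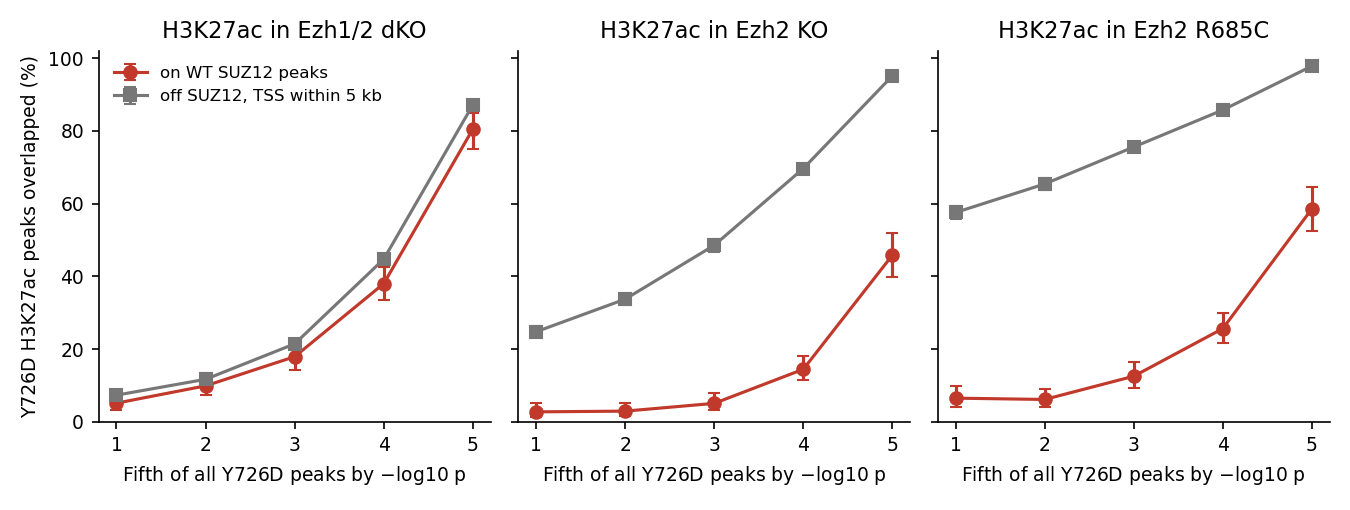
Share of Y726D H3K27ac peaks (y axis, percent) overlapped by an H3K27ac peak of each other mutant line, by quintile of all Y726D peaks by -log10 p (x axis, 1 is weakest), with Wilson 95% intervals for counting error. Peaks on WT SUZ12 (red) lie below the other peaks near a TSS (grey) in every quintile of each line. The gap is smaller in Ezh1/2 dKO than in Ezh2 KO and Ezh2 R685C. In the strongest quintile it is 80.5% against 87.1% in Ezh1/2 dKO and 45.8% against 95.1% in Ezh2 KO.

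Applied to the other lines, the same overlap rule gave 526 of 17618 H3K27ac peaks on WT SUZ12 in Ezh1/2 dKO (2.99%), 211 of 25483 in Ezh2 KO (0.828%) and 377 of 41185 in Ezh2 R685C (0.915%). Seen from the WT SUZ12 peaks, 28.3% carried H3K27ac in Y726D (95% CI 27.2 to 29.6), 9.23% in Ezh1/2 dKO, 7.01% in Ezh2 R685C and 3.96% in Ezh2 KO. With each list cut to the 17618 strongest peaks, the length of the shortest, the shares were 12.99% in Y726D, 9.23% in Ezh1/2 dKO, 2.76% in Ezh2 R685C and 2.59% in Ezh2 KO. The strength of WT SUZ12 binding went with these shares differently by line. From the weakest to the strongest quintile of SUZ12 peaks, the share was 25.7, 26.9, 29.6, 28.9 and 30.4% in Y726D. In Ezh2 KO it was 5.72, 6.24, 4.31, 1.73 and 1.99%, and in Ezh2 R685C it went from 10.4% to 3.71%. Ezh1/2 dKO stayed between 8.24% and 10.1%.

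**Figure D2:**
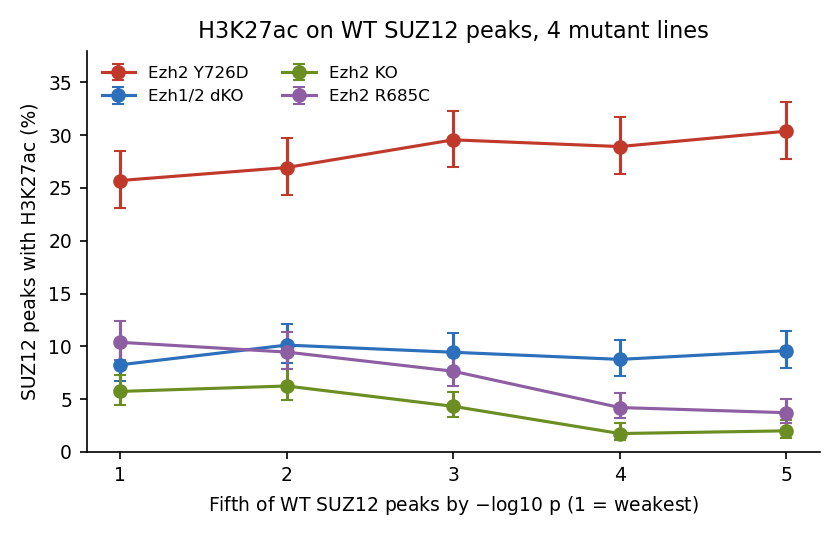
Share of WT SUZ12 peaks with an H3K27ac peak (y axis, percent) in 4 mutant lines, by quintile of SUZ12 -log10 p (x axis, 1 is weakest), with Wilson 95% intervals for counting error. Y726D lies above the other lines in every quintile, between 25.7% and 30.4%, and Ezh2 KO and Ezh2 R685C are lower in the 2 strongest quintiles than in the others.

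Most of these sites carried H3K27me3 in WT cells. A WT H3K27me3 peak overlapped 1165 of the 1681 (69.3%, 95% CI 67.1 to 71.5), against 0.971% of all other Y726D H3K27ac peaks. The mark is common to WT SUZ12 peaks and was less frequent at the acetylated ones. Counted over SUZ12 peaks, 70.2% of those with Y726D H3K27ac and 82.9% of the 3872 without it had WT H3K27me3. The shares were 62.0% and 87.3% for H3K27me3 in Ezh2 KO, and 79.0% and 93.4% in Ezh2 R685C. Over the acetylated peaks, H3K27me3 was listed at 63.0% of them in Ezh2 KO and at 79.2% in Ezh2 R685C, but at 4 (0.238%) in Y726D and 7 (0.416%) in Ezh1/2 dKO. SUZ12 itself was still listed in Y726D at 762 of the sites (45.3%). It was listed at 44.5% in Ezh2 R685C, 19.5% in Ezh2 KO and 2.97% in Ezh1/2 dKO. Counted over WT SUZ12 peaks with and without Y726D H3K27ac, SUZ12 was listed at 47.8% and 44.4% in Y726D. These shares were 44.6% and 55.4% in Ezh2 R685C, 19.1% and 25.2% in Ezh2 KO and 3.59% and 5.42% in Ezh1/2 dKO. HA-tagged human EZH1, transfected into Ezh1/2 dKO cells, had a peak at 763 (45.4%), and the untransfected control at 0.714%. The HA share was not counted over the other WT SUZ12 peaks. H3K27ac lay on 29.9% of the WT SUZ12 peaks still listed in Y726D and on 27.1% of those no longer listed. The share was higher at sites where Ezh2 KO cells lacked H3K27me3. H3K27ac in Y726D lay on 54.2% of the 1073 WT SUZ12 peaks without H3K27me3 in Ezh2 KO, and on 21.9% of the 4331 with it. The 516 acetylated sites without WT H3K27me3 were more often acetylated in Ezh2 KO than the 1165 with it (22.9% against 8.15%) and in Ezh2 R685C (36.0% against 13.3%). For Ezh1/2 dKO the shares were 32.4% and 26.6%.

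H3K27me2 and ATAC-seq lists were made at a permissive threshold and were used as deposited. H3K27me2 was listed in Ezh2 KO at 93.2% of the acetylated SUZ12 sites at 98.0% of the WT SUZ12 peaks without Y726D H3K27ac and at 9.78% of the other peaks near a TSS. In WT it was listed at 17.9% of the acetylated sites and at 1.98% of the SUZ12 peaks without acetylation, on the chromosomes that list covers. The corresponding shares were 19.99% and 22.4% in Ezh1/2 dKO and 43.7% and 39.9% in Y726D. Other peaks near a TSS had 37.3% in WT, 34.0% in Ezh1/2 dKO and 42.6% in Y726D. The study reports that H3K27me2 is lost in both of these mutant lines, so their shares are not read as presence of the mark. ATAC-seq reads open chromatin. Its lists overlapped 94.4% to 95.5% of the sites in WT and the 3 mutant lines with ATAC-seq lists. They also overlapped 93.6% to 94.1% of the SUZ12 peaks without acetylation and 88.5% to 89.6% of the other peaks near a TSS. Of the other peaks with no TSS within 5 kb, they overlapped 84.7% to 86.0%. At a -log10 p of at least 10, these lists overlapped 0% of the acetylated sites.

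The strongest and widest sites were unlike the typical one. The peak with the highest -log10 p, 85.2 over 2091 bp, had Msx2 as its nearest gene, a homeobox factor downstream of BMP signalling. Next came the peaks whose nearest genes were Lrrn2 (84.8), Meis2 (83.7), the T-box factor gene Tbx3 (82.3), Sall3 (73.7), the glutamate receptor gene Grik3 (70.9), Tbca (69.8, more than 5 kb away) and Zc3hav1 (69.3). All 8 had H3K27ac in Ezh1/2 dKO, Ezh2 KO and Ezh2 R685C. The Tbx3 peak was also the widest, at 11260 bp, with 9.69% of its length on SUZ12. The 100 strongest sites were a median of 1970.5 bp wide, with 63.99% of their length on SUZ12, and 95% were shared with Ezh1/2 dKO, 80% with R685C and 66% with Ezh2 KO. In contrast, the 681 weakest were a median of 408 bp wide and lay wholly on SUZ12 at the median, with 8.08%, 6.17% and 2.94% shared. Position within SUZ12 went the same way. Of the 921 peaks wholly inside SUZ12, 3.80% were shared with Ezh2 KO, 83.4% had WT H3K27me3 and 68.8% HA-EZH1. Of the 228 with under 50% of their length inside, the values were 37.3%, 38.6% and 8.33%.

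The Hox clusters, which encode the homeodomain factors of body patterning, held 86 of the 1681 peaks. Over the Hoxa cluster with 5 kb on each side, 30 Y726D H3K27ac peaks covered 33.3% of the bases, and 26 of them lay on SUZ12. Ezh1/2 dKO had 10 peaks there covering 5.25%, and Ezh2 KO and Ezh2 R685C had 1 each, covering 0.234% and 0.493%. WT SUZ12 covered 51.8% of the cluster and WT H3K27me3 76.2%. In Y726D, SUZ12 covered 7.92% and H3K27me3 had no peak. The Hoxc and Hoxd clusters were alike in Y726D, with 38 peaks over 27.2% and 32 peaks over 20.9%, against 6.16% and 2.75% in Ezh1/2 dKO. Ezh2 KO and Ezh2 R685C had no peak over Hoxd, and 3.88% and 7.78% over Hoxc. The Hoxb cluster was least acetylated in Y726D, with 8 peaks over 5.03%, against 2.20% in Ezh1/2 dKO. No H3K27me3 peak of Y726D or Ezh1/2 dKO fell in any of the 4 clusters. In Ezh2 KO, H3K27me3 covered 79.9% of Hoxa, 53.7% of Hoxb, 75.3% of Hoxd and 10.8% of Hoxc.

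**Figure D3:**
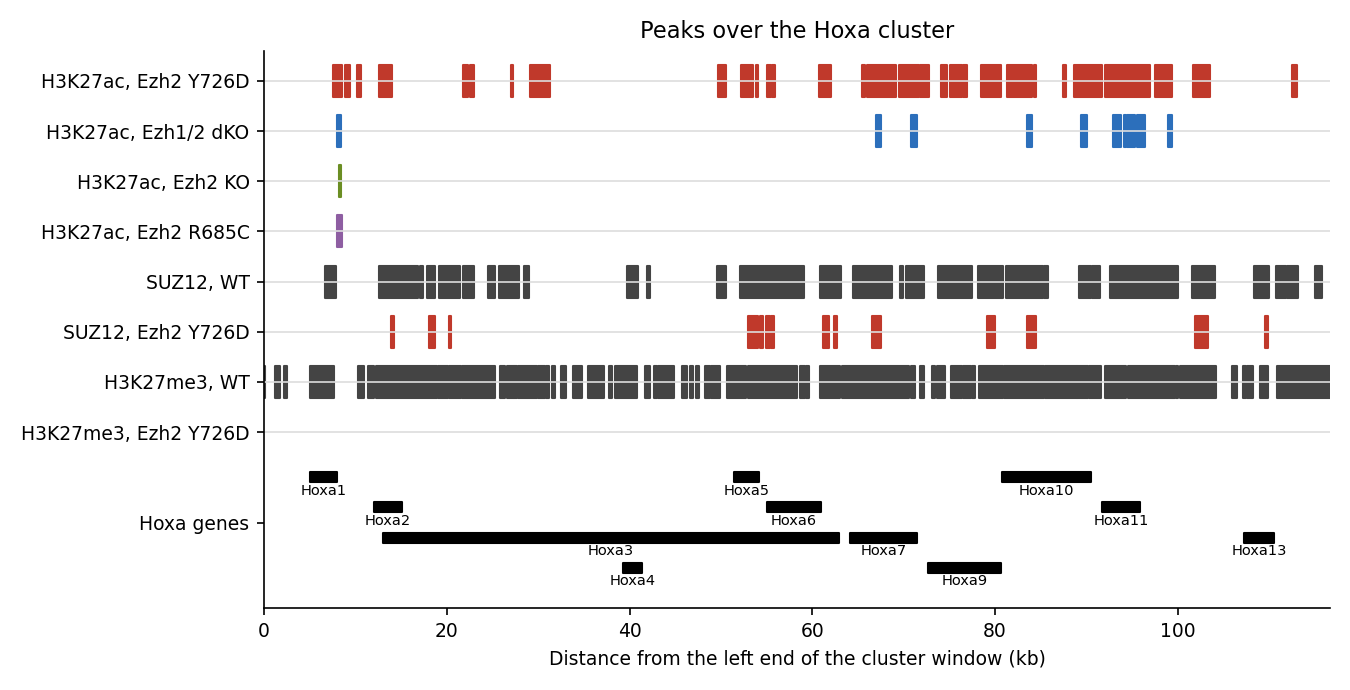
Peaks over the Hoxa cluster and 5 kb on each side, plotted by distance from the left end of that window (x axis, kb), with 1 row per list and the Hoxa genes at the bottom. H3K27ac in Y726D covers 33.3% of the window and lies mostly where WT SUZ12 and H3K27me3 lie, whereas Ezh2 KO and Ezh2 R685C have 1 peak each and H3K27me3 in Y726D has none.

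RNA was measured independently of the rule. Of the genes in the expression table, 1148 had a TSS within 5 kb of an acetylated SUZ12 site, and 934 of them reached the mean normalized count of 5 needed for testing. Calls needed a log2 fold change of 1 or more in either direction together with an adjusted p under 0.1 (limma, Benjamini-Hochberg over 13872 genes). In Y726D against WT, 92 of the 934 were called higher (9.85%) and 12 lower (1.28%), where 1.66% and 1.06% of all genes tested were called. In Ezh1/2 dKO, 141 were called higher (15.1%) and 3 lower (0.321%), where 3.63% and 0.389% of all genes were. In Ezh2 KO, 4 were called higher and 4 lower (0.428% each), where 0.0937% and 0.31% of all genes were. The median log2 fold change of these genes was 0.51 in Y726D, 0.66 in Ezh1/2 dKO and -0.01 in Ezh2 KO, while that of all genes tested was -0.01, 0.01 and -0.01. All 3 comparisons share the WT libraries. The study's reporting form calls its samples biological replicates, but the labels do not say what separates the 2 libraries of a line, and p-values measure the spread between them. Fewer expressing cells and less RNA per cell cannot be told apart in bulk RNA. The Ezh1/2 dKO calls rest on both of its libraries, since they nearly vanished without either, near the sites and over all genes tested alike. Leaving out 1 library at a time, the median log2 fold change near the sites stayed between 0.62 and 0.70 in Ezh1/2 dKO. The Y726D calls became fewer without either Ezh1/2 dKO library or without Y726D replicate 2, also over all genes tested. With only the WT and Y726D libraries in the fit, limma called 16 higher and 0 lower near the sites. Over all genes tested it called 20 and 12. Near the sites, 20 were lower at an unadjusted p under 0.05 by limma. By DESeq2, Ezh2 KO had 12 higher and 16 lower near the sites, and 46 and 103 over all genes tested. The Ezh2 KO counts also changed, in both sets, when a WT or Ezh2 KO library was left out.

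Genes near SUZ12 but no acetylated SUZ12 site moved too. H3K27ac off SUZ12 near their TSS was not excluded. Of 1012 tested genes near a WT SUZ12 peak but no acetylated one, 41 were called higher in Y726D (4.05%) and 100 in Ezh1/2 dKO (9.88%), with median log2 fold changes of 0.37 and 0.80. By size alone, 29.1% of tested genes near an acetylated site and 26.1% of these had a log2 fold change of at least 1 in Y726D, and 35.4% and 42.2% in Ezh1/2 dKO. The differences between these classes were not tested, and their WT counts differed. Of 8478 genes near a Y726D H3K27ac peak and no SUZ12 peak, 55 were called higher in Y726D (0.649%). Tested genes passed a filter over all 8 libraries, which a gene low in WT could pass through a line where it was high. Of the 1148 genes near acetylated sites, 36 had a mean of at least 5 in Ezh1/2 dKO only. This held for 18 in Y726D only and for 5 in WT only. The median normalized count of tested genes in WT was 39.9 near the acetylated sites and 15.7 near SUZ12 but no acetylated site. It was 293 for genes near H3K27ac and no SUZ12 peak. Tested or not, 24.8% of the genes near the acetylated sites had a WT mean under 5. Near SUZ12 but no acetylated site it was 52.9%. Within the acetylated sites, genes near one with WT H3K27me3 were called higher in Y726D in 13.02% of 622 cases, and the rest in 3.53% of 312. Genes near a site that Ezh2 KO also acetylated were called higher in 4.82% of 166 cases, and the rest in 10.9% of 768. For sites shared with Ezh1/2 dKO the shares were 11.2% of 357 and 9.01% of 577. By strength of the H3K27ac peak, the weakest, middle and strongest groups of sites gave 9.63, 10.4 and 12.8%. No test was made between these subsets.

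**Figure D4:**
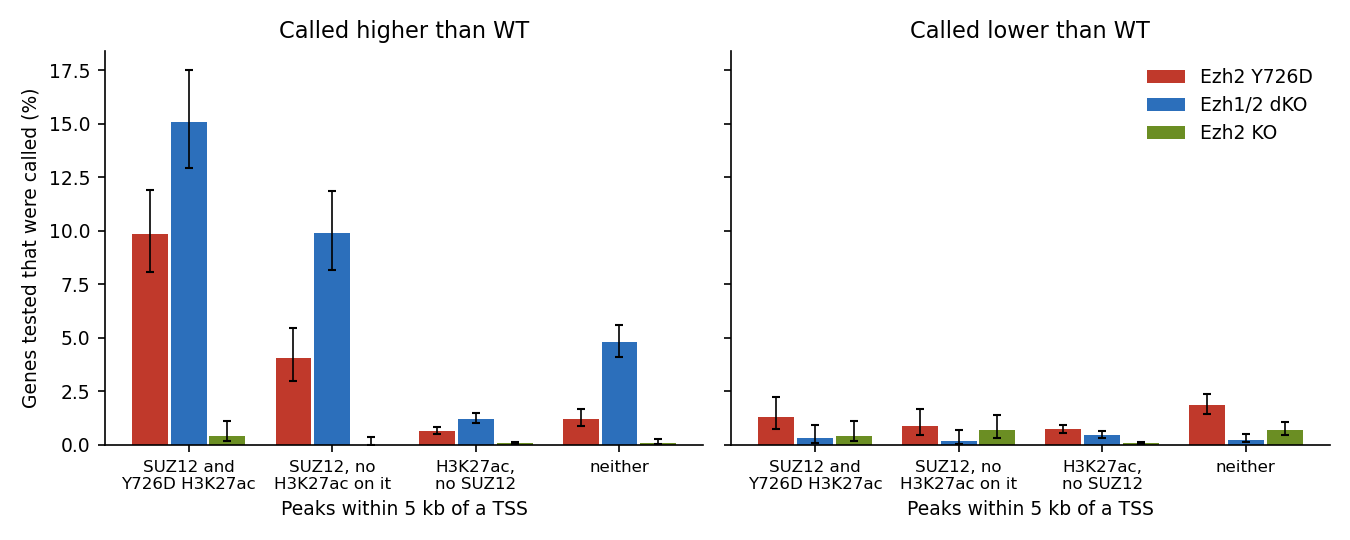
Percent of tested genes called higher (left) or lower (right) than WT (y axis), by the peaks within 5 kb of a TSS (x axis), in Y726D, Ezh1/2 dKO and Ezh2 KO, with Wilson 95% intervals for counting error. Genes with Y726D H3K27ac on SUZ12 have the highest share called higher, 9.85% in Y726D and 15.1% in Ezh1/2 dKO, and the shares called lower stay at or under 1.87% in every class.

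Hox genes led the rises. Hoxa10, a posterior patterning factor, had normalized counts of 2.67 and 0 in the WT libraries and 5.23 and 0 in Ezh2 KO. In Ezh1/2 dKO they were 226 and 223, and in Y726D 424 and 493. Both lines lacking H3K27me3 on these sites lay far above WT and Ezh2 KO without overlap, and the log2 fold change in Y726D was 7.90 (SE 0.83, adjusted p = 0.00574 by limma). Hoxa11os, an antisense RNA beside Hoxa11, had 1.33 and 0 in WT, 0 in both Ezh2 KO libraries, 98.1 and 63.9 in Ezh1/2 dKO and 158 and 189 in Y726D. Its log2 fold change was 6.83 (SE 0.57, adjusted p = 0.00175 by limma). Reads were counted without regard to strand, so Hoxa11os and Hoxa11 cannot be fully told apart. Hoxa9 had 0 and 2.89 in WT, 1.05 and 0 in Ezh2 KO, 61.0 and 50.6 in Ezh1/2 dKO and 145 and 210 in Y726D, a log2 fold change of 6.48 (SE 0.70). Hoxa11 was at 0 in both WT libraries, 2.09 and 0 in Ezh2 KO, 26.4 and 17.8 in Ezh1/2 dKO and 44.6 and 71.6 in Y726D. That is at least 16.9-fold above a floor of 3 reads per WT library.

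Every one of these 4 genes lay within 5 kb of 3 to 8 acetylated SUZ12 sites. Hoxd13 was also at 0 in WT and in Ezh2 KO, with 33.8 and 23.1 in Ezh1/2 dKO and 27.6 and 31.3 in Y726D. That is at least 8.56-fold above the floor in Y726D (adjusted p = 0.0102 by limma). Hoxa7 rose from 5.34 and 6.74 in WT to 106 and 232 in Y726D (log2 fold change 4.49, SE 0.49), with 65.1 and 85.2 in Ezh1/2 dKO and 10.5 and 5.81 in Ezh2 KO. Olig3, a neural bHLH factor, was at 0 in WT and at 16.0 and 24.6 in Y726D, at least 5.90-fold above the floor, with 16.5 and 14.2 in Ezh1/2 dKO. The smaller rises named by the rule were Nfia (log2 fold change 4.06), Hoxb7 (3.69), Hoxa3 (3.43), Hoxc10 (3.42) and Lad1 (3.38), all called higher in Ezh1/2 dKO as well and none in Ezh2 KO. Lad1, which encodes a basement membrane protein, went from 25.3 and 9.63 in WT to 149 and 202 in Y726D, and stood at 32.4 and 33.9 in Ezh2 KO. Of the 92 genes called higher in Y726D, 72 were called higher in Ezh1/2 dKO. This share was not counted over all 230 genes called higher in Y726D, and both comparisons use the same WT libraries. Only Hmga2, Meis1 and Tfap2a, named after their values were seen, were called higher in Ezh2 KO too, and that call of Meis1 held under 4 of 17 alternatives. Fold changes are on the log2 scale of the normalized count plus 1, which understates the change of low genes.

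**Figure D5:**
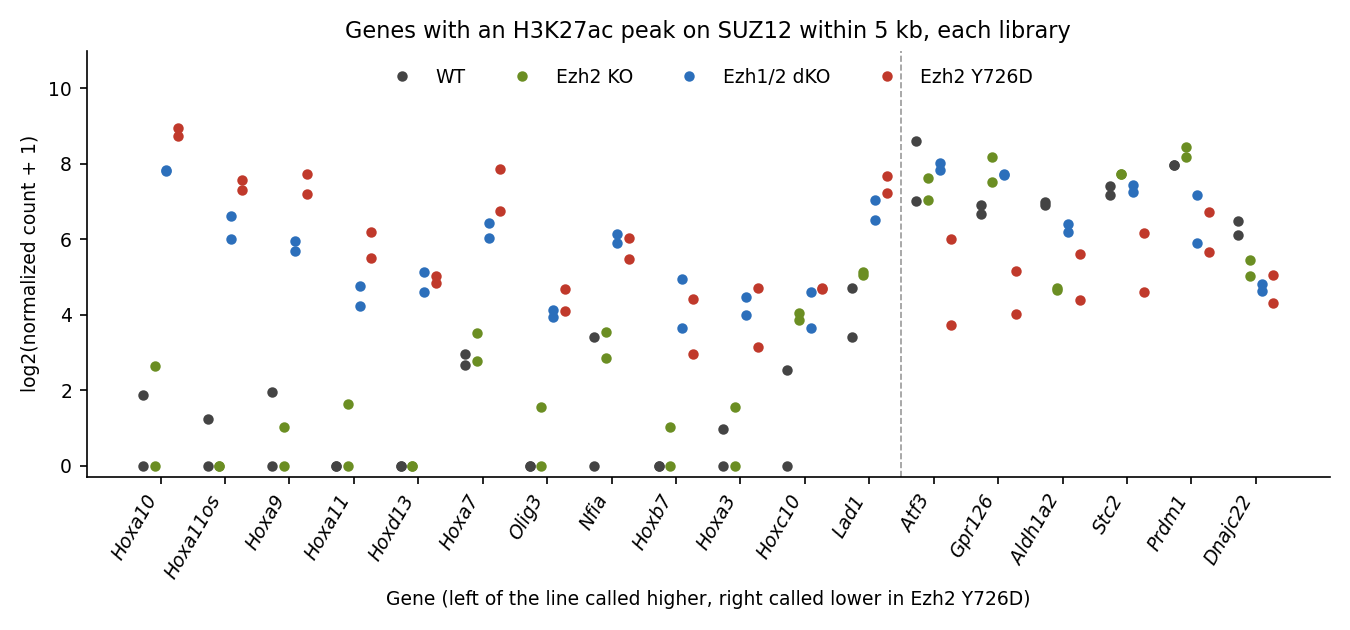
log2 of the normalized count plus 1 (y axis) in each of the 8 RNA-seq libraries, for the 12 genes with the largest rise and the 6 with the largest fall in Y726D among called genes within 5 kb of an acetylated SUZ12 site (x axis). For the rising genes the Y726D points lie above both WT points and mostly beside those of Ezh1/2 dKO, as for Hoxa10 with 424 and 493 against 2.67 and 0 in WT.

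By list, the Hox genes had the most calls. Of 36 Hox genes in the table, 31 lay near an acetylated SUZ12 site and 18 of these were tested. Those at 0 in WT passed the filter only through mutant libraries, so the share called depends partly on the filter. Of the 18, limma called 10 higher in Y726D, 11 in Ezh1/2 dKO and 0 in Ezh2 KO, where 2 had an unadjusted p under 0.05. The Y726D count was 5 by edgeR and 8 by DESeq2, with 10 in Ezh1/2 dKO and 0 in Ezh2 KO by either tool. Other homeobox factors gave 3 of 16 in Y726D, En2, Meis1 and Otx1, and 4 of 16 in Ezh1/2 dKO, Alx1, En2, Meis1 and Pitx1. Forkhead, Sox, T-box and GATA factors gave 2 of 12 in Y726D, Gata3 and Tbx15, and 6 of 12 in Ezh1/2 dKO. Sox21, called in Ezh1/2 dKO, had 36.0 and 45.3 in WT, 148 and 123 in Ezh1/2 dKO and 52.6 and 26.8 in Y726D. Of the Wnt, FGF, BMP and Hedgehog genes, 2 of 14 were called higher in Y726D. Fgf15 had 16.0 and 7.70 in WT, 33.8 and 35.5 in Ezh1/2 dKO and 111 and 115 in Y726D (log2 fold change 3.23, SE 0.41). Bmp4 had 313 and 373 in WT and 736 and 688 in Y726D (1.06, SE 0.15), with 343 and 334 in Ezh1/2 dKO. Of 6 tested bHLH factors, Olig3 was called higher in Y726D, and Msc and Olig3 in Ezh1/2 dKO. None of 2 cell cycle inhibitors, 3 pluripotency genes, 2 mesoderm markers or 4 neural markers near a site was called in any line by limma, edgeR or DESeq2, although up to 1 in each direction of each list had an unadjusted p under 0.05, and no PRC2 subunit gene lay near one. The PcG loci that the study chose for display are not independent evidence, since they were picked on these lines: 5 of 8 tested were called higher in both Y726D and Ezh1/2 dKO. Over the same lists, no gene near an acetylated site was called lower in Y726D.

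Markers of other cell types were among the rises, and their values stand beside the counts above. Of the primitive endoderm list, 3 of 5 tested genes near an acetylated site were called higher in Y726D, Amn, Col4a1 and Col4a2, and Gata4 in addition in Ezh1/2 dKO. Col4a1, a basement membrane collagen, went from 147 and 80.9 in WT to 718 and 954 in Y726D and 896 and 660 in Ezh1/2 dKO. Of the trophectoderm list, Gata3, Krt18 and Krt8 were called higher in both lines, 3 of 6. Thy1 of the fibroblast list was called higher in both, with 84.7 and 76.1 in Y726D against 10.7 and 4.81 in WT. Summed over the 6 fixed primitive endoderm markers, the normalized count was 17.3 to 21.2 in WT, 44.7 to 60.6 in Y726D and 132 to 156 in Ezh1/2 dKO, with Sox17 and Foxa2 at 0 in Y726D. The 4 trophectoderm markers summed to 32.7 to 124 in WT and 168 to 555 in Y726D. Cdx2 alone gave 33.0 in one Y726D library and 440 in the other. The 5 fibroblast markers in the table summed to 4.81 to 12.01 in WT and 86.1 to 88.3 in Y726D, with Lum and Dcn at 0 there. Most of each sum was Thy1 alone, at 84.7 and 76.1 in Y726D and 10.7 and 4.81 in WT. The 7 ESC markers summed to 8487 to 9554 in WT and 8079 to 8340 in Y726D. The part of other cell types in the rises was not tested.

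Falls near acetylated sites were few and smaller. Gpr126, an adhesion receptor, had 118.7 and 101.1 in WT, 181 and 287 in Ezh2 KO, 213 and 207 in Ezh1/2 dKO and 15.2 and 34.7 in Y726D, the lowest of the 4 lines without overlap (log2 fold change -2.20, SE 0.38, adjusted p = 0.0324 by limma). Stc2, a secreted glycoprotein, had 168 and 142 in WT, 213 and 213 in Ezh2 KO, 152 and 172 in Ezh1/2 dKO and 71.3 and 23.5 in Y726D (-1.89, SE 0.42). Atf3, a stress-induced factor, had 391 and 129 in WT and 63.3 and 12.3 in Y726D (-2.95, SE 0.69), with 227 and 260 in Ezh1/2 dKO. Its WT libraries differ widely. Aldh1a2, the retinoic acid synthesis enzyme, fell in Y726D (-1.94) and in Ezh2 KO (-2.27), calls that held under 11 and 7 of 17 alternatives, and Dnajc22 in Y726D (-1.61) and Ezh1/2 dKO (-1.57). Prdm1, a transcriptional repressor, fell in Y726D (-1.78). The acetylated site at Gpr126, at -194 bp from its TSS, was shared with all 3 other lines, as were both sites at Stc2, whereas those at Aldh1a2, Prdm1 and Dnajc22 were shared with none. In Ezh2 KO the 4 genes called lower were Aldh1a2, Arhgef26, Fam124a and Ptrf. The 3 called lower in Ezh1/2 dKO were Cdk6, Dnajc22 and Mcam.

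The nearest genes of the 8 strongest sites were not called in Y726D. Tbx3 had 1709 and 1895 in WT and 1879 and 2287 in Y726D (log2 fold change 0.20, SE 0.13), and Msx2 had 60.03 and 112 in WT and 119.5 and 114 in Y726D (0.51, SE 0.33). Meis2 had 204 and 210 in WT, 551 and 518 in Ezh2 KO and 489 and 336 in Y726D, and was called higher in Ezh2 KO (1.36, adjusted p = 0.0262 by limma). In Y726D its log2 fold change of 0.96 (adjusted p = 0.0480 by limma) was under the limit of 1, and the difference between Y726D and Ezh2 KO was -0.40 (adjusted p = 0.363 by limma). Among the genes of the 4 widest sites, Bahd1 (1.70) and Islr2 (2.27) were called higher in Y726D, and Tbx3 and Tnrc18 (0.09) were not. The targeted genes check the labels. Ezh1 had normalized counts of 227 and 377 in WT, 24.1 and 15.7 in Y726D and 14.01 and 20.4 in Ezh1/2 dKO. Ezh2 had 598 and 546 in WT, 422 and 613 in Y726D and under 2 in each library of Ezh2 KO and Ezh1/2 dKO. The RNA-seq libraries held 3604123 to 5181553 reads on genes.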

How the data were processed

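H3K27ac, SUZ12, H3K27me3, HA and broad-mark lists and RNA-seq of mouse ESCs were analysed. The authors aligned ChIP-seq reads to mm9 with Bowtie, kept unique alignments, removed duplicates and ran MACS2 on each library. For each peak the deposited lists give its position, its -log10 p and its fold enrichment (a ratio), and those of H3K27ac, SUZ12 and H3K27me3 reach a p of at most 1e-10. The HA lists give positions only. For RNA-seq, the authors used TopHat, HTSeq-count without strand and DESeq2. The deposited values are a signal per gene, reads scaled by library size factors, of which 100% were whole multiples of 1 read (tolerance 0.01). Deposited comparisons with WT hold the authors' fold changes and p-values and were not used.

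Lists were compared on chromosomes 1 to 19, X and Y, at 1 bp of overlap, with Wilson 95% intervals (Python 3.11.15, scipy 1.17.1). Depth behind the lists is unknown. RNA-seq was fitted across all genes with limma 3.58.1 in R 4.3.3, on log2 of the normalized count plus 1, over all 8 libraries and with a mean of at least 5. The recovered reads were also tested with edgeR 4.0.16 and with DESeq2 1.42.0. The calculations were tested on simulated data. Sites come from NCBIM37 and its GENCODE annotation. Of 18055 symbols, 16570 matched directly, 854 by a synonym and 631 not.

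The sites and gene lists were chosen with earlier results of these data known. Named genes are the 12 largest rises and 6 largest falls among called genes within 5 kb of a site with both Y726D libraries beyond both WT libraries, the nearest genes of the 8 strongest and 4 widest sites, listed genes called in any line, the study's PcG loci, and checks. Contrasts between mutant lines were added after seeing the data. Windows on annotated UTRs or chromosome 18 are not printed. WT H3K27ac, RING1B, H2AK119ub, EZH2 rescue and drug-treated samples were not analysed here.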

Additional observations from a re-analysis of the deposited data

Results flagged for a closer look

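Direct contrasts between mutant lines, taken from the same limma fit and chosen after seeing the data, separated Y726D from Ezh2 KO for 10 of the named rises near acetylated SUZ12 sites. The log2 differences, Y726D minus Ezh2 KO, were 7.52 for Hoxa10, 7.44 for Hoxa11os, 6.94 for Hoxa9, 5.03 for Hoxa11 and 4.93 for Hoxd13. They were 4.16 for Hoxa7, 3.61 for Olig3, 3.17 for Hoxb7, 3.14 for Hoxa3 and 2.36 for Lad1. Adjusted p-values from limma ranged from 0.000652 for Hoxa11os to 0.0930 for Hoxa3. Among the falls, Y726D was lower than Ezh2 KO by a log2 difference of -3.25 for Gpr126, -2.35 for Stc2 and -2.13 for Prdm1. Against Ezh1/2 dKO the difference was -3.13 for Gpr126 (adjusted p = 0.00963 by limma), -3.06 for Atf3 and -1.95 for Stc2. Each line has 2 libraries, and both Y726D libraries lay on the stated side of both libraries of the other line.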

How the results depend on the processing

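With the summit required inside SUZ12, 10.96% of the sites were overlapped in Ezh2 KO, 18.3% in Ezh2 R685C, 71.9% by WT H3K27me3 and 47.9% by SUZ12 in Y726D. With at least 50% of the peak inside SUZ12, the median width was 578 bp and the shares 8.81% in Ezh2 KO, 25.1% in Ezh1/2 dKO, 16.0% in R685C, 74.1% for WT H3K27me3 and 48.9% for SUZ12. At a p of at most 1e-20 in all lists, 251 sites remained, with a median width of 1128 bp, a median -log10 p of 26.2 and shares of 6.77, 12.7, 13.1, 35.9 and 12.4% in the same order, so that R685C was above Ezh1/2 dKO. With at least 50% of the site covered, the shares were 7.26, 16.7, 15.1, 57.0 and 33.4%. With each second list cut to the shortest of its target, they were 8.57% in Ezh2 KO, 8.51% in R685C, 1.55% for H3K27me3 and 4.05% for SUZ12, the last 2 because the shortest lists hold 53 and 317 peaks. WT SUZ12 peaks with H3K27ac, with lists cut to the shortest, were 12.99% in Y726D, 2.59% in Ezh2 KO and 2.76% in R685C. At a p of at most 1e-20 they were 8.08% in Y726D, 1.12% in Ezh1/2 dKO, 0.593% in Ezh2 KO and 1.42% in R685C, again above Ezh1/2 dKO. These last 2 settings were chosen after seeing the data.

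For RNA, the median log2 fold change in Y726D was 0.35 within 20 kb, 0.43 with a pseudocount of 5, 0.46 at a mean of at least 20 and 0.40 with quantile normalization, and in Ezh1/2 dKO 0.48, 0.58, 0.57 and 0.30. Genes called lower in Ezh1/2 dKO were 5 within 20 kb and 6 with quantile normalization. Without a filter, 71 of 1148 genes were called higher in Y726D (6.18%), against 0.925% of all 18055 genes. In the same fit, 6 were called lower in Y726D, and 2 higher and 1 lower in Ezh2 KO. With only the 4 libraries compared, 16 were called higher and 0 lower in Y726D by limma (20 lower at an unadjusted p under 0.05). In Ezh2 KO, 1 was called higher and 2 lower. Over all genes tested, these counts were 20 and 12 in Y726D and 5 and 23 in Ezh2 KO. Y726D gave 81 higher and 9 lower by edgeR (200 and 127 over all genes tested) and 117 and 15 by DESeq2 (290 and 193). Ezh2 KO gave 1 lower with quantile normalization (25 over all genes) and 2 higher and 1 lower by edgeR (7 and 23). DESeq2 gave 12 higher and 16 lower in Ezh2 KO (46 and 103). Leaving out 1 library at a time, called genes ranged from 46 to 89 higher and 4 to 19 lower in Y726D, 0 to 177 and 0 to 5 in Ezh1/2 dKO, and 0 to 11 and 1 to 11 in Ezh2 KO. The counts over all genes tested moved in the same fits. Medians near the sites ranged from 0.47 to 0.54, 0.62 to 0.70 and -0.051 to 0.066. Where a line keeps 1 library, it is assumed to vary like the others. The replicate block gave 87 higher and 10 lower in Y726D, 128 and 3 in Ezh1/2 dKO, and 2 and 1 in Ezh2 KO. The numbers do not pair the libraries (correlation of deviations -0.409 to 0.288). The cause of these changes was not tested. For single named genes, 955 comparisons of an alternative kept the call, 317 lost it and 0 reversed it. In Y726D, the calls of Hoxa10, Hoxa11os, Hoxa9, Hoxa11, Hoxd13, Hoxa7, Lad1 and Fgf15 held under each alternative run, and Olig3 under 15 of 16. Those of Hoxb7 held under 7 of 16, Hoxc10 6, Hoxa3 5, Otx1 4, Hoxd8 3 and Hoxd10 2, and those of Gata3 under 6 of 17, Dnajc22 7, Stc2 8, Prdm1 8, Atf3 9, Nfia 10 and Gpr126 16.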
